A study of Mus musculus with 6 samples.

Results

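A set of 10 genes that modify, fold or trim newly made collagen were followed here in the left ventricle of mice with a myocardial infarct. They were the prolyl 4-hydroxylase alpha subunits P4ha1, P4ha2 and P4ha3, the lysyl hydroxylases Plod1, Plod2 and Plod3, the chaperones Serpinh1, Fkbp10 and Crtap, and the procollagen processing enhancer Pcolce. They were chosen by gene name, with earlier results of these data known, and all 10 are among the 34745 genes listed in every library. Shares of members set beside those of all genes are therefore a description only. RNA-seq libraries were made from 2 groups of 3 samples each. The control group is MI-NS, whose abbreviation the labels do not spell out, and the treated group is MI-DAPA, infarcted mice that received dapagliflozin, which blocks SGLT2, the glucose transporter of the kidney tubule. Both groups carried an infarct, so no comparison with uninjured heart was possible. Mouse strain, age, sex, dose, length of treatment, time after infarction and the distance of the tissue from the scar were not stated in the labels.

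Collagen chains are made in the endoplasmic reticulum, where prolines are hydroxylated so that the triple helix stays folded at body temperature and lysines are hydroxylated so that crosslinks and sugars can be attached. Dedicated chaperones hold the chains until they are folded, and after secretion proteases cut off the ends of the procollagen before fibrils assemble. In the infarcted heart most fibrillar collagen is made by activated fibroblasts, whereas several of these enzymes are also made in other cells. The prolyl and lysyl hydroxylases need oxygen, iron, 2-oxoglutarate and ascorbate.

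Library totals were 17207974 to 20563188 counts. Levels are given as CPM, counts per 1000000 counts of the TMM-adjusted library size, and changes as log2 fold change of MI-DAPA over MI-NS with its standard error (SE) from edgeR's quasi-likelihood fit across 13940 genes. A gene was called when its p, adjusted by the Benjamini-Hochberg method over all tested genes, was under 0.05. All 8 cardiomyocyte markers were tested. Their summed level was 42023 to 44492 CPM in MI-NS and 52948 to 56338 CPM in MI-DAPA. Such levels go with heart muscle and do not check the chamber named in the label. Across all tested genes 16.5% were called, 1092 (7.83%) lower and 1212 (8.69%) higher in MI-DAPA. With library totals as the only scaling these counts were 1249 and 410, and the median change of all genes was -0.12 in place of -0.019.

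Pcolce, P4ha3, Plod3 and Plod2 were lower in MI-DAPA, and the other 6 members did not pass the test. All 10 fitted changes were negative, with a median of -0.36 on the log2 scale. Of 10 members 4 were called lower, where 7.83% of all tested genes were, and 0 were called higher, where 8.69% were. P4ha3 passed the filter on low counts through MI-NS alone, and with no such filter its log2 change was -3.47 with an adjusted p of 0.0018. Among the other 9 members 3 were called and the median was -0.35. In 6 members all MI-DAPA libraries lay below all MI-NS libraries, against 18.5% of tested genes, and 37% of tested genes did not overlap in either direction. The calls depended on single libraries: 2 to 4 members were called lower with 1 library left out, with 2 where MI-NS replicate 1 or MI-DAPA replicate 3 was missing. Replicate 3 of both groups comes from files named in another style, and without both of these libraries 0 members were called lower by edgeR and 4 had an unadjusted p under 0.05. In that fit with 2 libraries a group 24 genes were called of all tested.

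**Figure D1:**
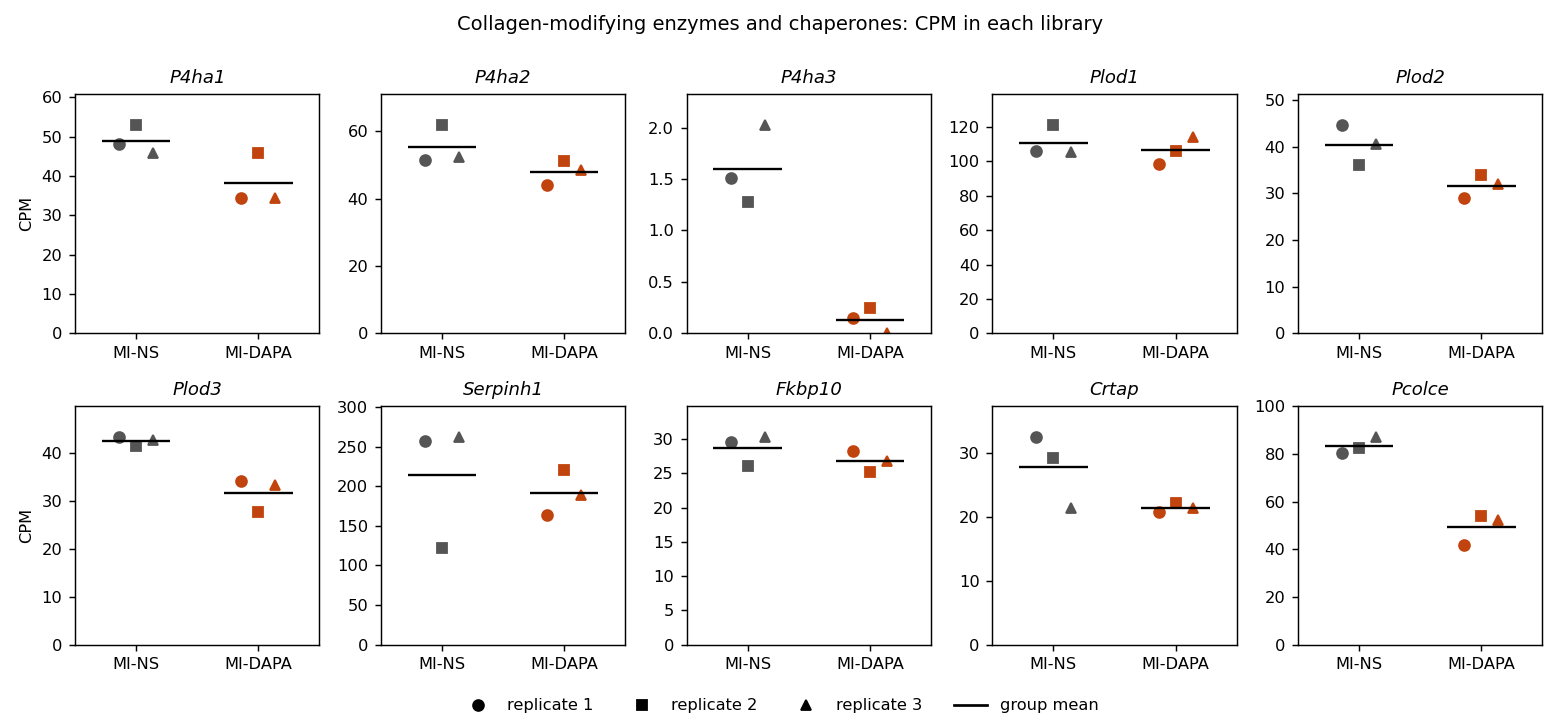
CPM of each of the 10 genes in each library (y axis, from 0; scales differ between panels), with MI-NS in grey and MI-DAPA in orange; symbols give the replicate and bars the group mean. Pcolce, P4ha3, Plod2 and Plod3 separate the groups, P4ha1 and P4ha2 do so only barely, and Serpinh1 in MI-NS ranges from 122 to 263 CPM.

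The prolyl 4-hydroxylase alpha subunits carry the catalytic site of the enzyme that makes 4-hydroxyproline, and they assemble with P4hb, also known as protein disulfide isomerase. P4ha3 (ENSMUSG00000051048, chromosome 7, 100285520 to 100319699 on mm10) was the least abundant of them. Its counts were 34, 26 and 34 in the MI-NS libraries, and the MI-DAPA libraries held 3, 5 and 0. All MI-DAPA libraries were thus far below all MI-NS libraries, and a count of 3 corresponds to 0.133 to 0.178 CPM in these libraries. In summed counts, 94 against 8, the level was 11.4-fold higher in MI-NS than in MI-DAPA, with a 95% exact interval of 5.54 to 27.1 that covers counting error only. The fitted log2 change was -3.48 ± 0.58 (SE) with an edgeR adjusted p of 0.00688, and with 1 library left out the change ran from -2.95 without MI-DAPA replicate 3 to -4.21 without MI-DAPA replicate 2, called each time. Without replicate 3 of both groups it was -2.76 with an adjusted p of 0.078. A smaller change was seen for P4ha1 (ENSMUSG00000019916, chromosome 10, 59323296 to 59373304), which had 48.0, 52.8 and 45.8 CPM in MI-NS and 34.4, 45.7 and 34.3 CPM in MI-DAPA. The groups barely separated, since the highest MI-DAPA library and the lowest MI-NS library differed by less than the spread within either group. Its log2 change was -0.36 ± 0.13 and did not pass (edgeR adjusted p = 0.0855), but without MI-DAPA replicate 2 it was -0.50 and passed (adjusted p = 0.0207). P4ha2 (ENSMUSG00000018906, chromosome 11, 54100095 to 54131665) ranged from 51.5 to 61.7 CPM in MI-NS and from 43.9 to 51.1 CPM in MI-DAPA, and its log2 change of -0.21 ± 0.10 did not pass either (edgeR adjusted p = 0.189).

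The promoters of the alpha subunits are shown because these paralogs differed in the size of their change. P4ha1 and P4ha2 are known in mammals as targets of the hypoxia-inducible factors, whose core site reads ACGTG or GCGTG. The sequences are the 250 bases before the RefSeq start on GRCm38.p6, 5′ to 3′ on the gene's strand, with capitals on each ACGTG or GCGTG found on either strand (CACGT and CACGC where it lies on the other strand). P4ha1 is chr10:59323046-59323295, P4ha2 is chr11:54100674-54100923 and P4ha3 is chr7:100285270-100285519, all on the plus strand. The P4ha2 window lies inside the locus given above, which starts at 54100095, before the RefSeq start.
P4ha1 promoter: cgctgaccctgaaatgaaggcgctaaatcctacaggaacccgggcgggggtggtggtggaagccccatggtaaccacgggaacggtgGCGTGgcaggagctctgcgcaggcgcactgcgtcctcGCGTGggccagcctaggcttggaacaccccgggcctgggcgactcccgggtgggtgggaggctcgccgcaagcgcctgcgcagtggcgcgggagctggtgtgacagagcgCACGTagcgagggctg
P4ha2 promoter: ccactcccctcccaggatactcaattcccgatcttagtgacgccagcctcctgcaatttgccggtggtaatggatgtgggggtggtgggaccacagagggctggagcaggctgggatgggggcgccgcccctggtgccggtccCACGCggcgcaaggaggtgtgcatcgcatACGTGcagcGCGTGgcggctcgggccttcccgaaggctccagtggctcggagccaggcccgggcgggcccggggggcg
P4ha3 promoter: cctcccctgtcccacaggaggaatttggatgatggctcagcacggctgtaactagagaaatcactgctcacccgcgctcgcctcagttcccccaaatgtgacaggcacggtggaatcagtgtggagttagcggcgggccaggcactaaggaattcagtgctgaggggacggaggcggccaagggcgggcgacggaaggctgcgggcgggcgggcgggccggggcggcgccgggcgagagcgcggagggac
P4ha1 and P4ha2 each hold 1 ACGTG and 2 GCGTG, and P4ha3 holds 0 of either in this window. ACGTG is found in 16.6% and GCGTG in 28.2% of 32851 RefSeq promoter windows of the same length, and at least 1 of them in 38.6%. The GC box GGGCGG, searched on both strands and counted with overlaps, occurs 5 times in P4ha3, 1 time in P4ha1 and 2 times in P4ha2, and 32.7% of windows hold it. These letter matches are a description of the windows only. Of the 10 members 8 had a promoter in the RefSeq table, 7 of the 8 held ACGTG or GCGTG and 6 held GGGCGG.

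Within the alpha subunit family the balance of the abundant isoforms overlapped between groups. Per exonic kilobase, P4ha1 made up 56.0% ± 1.06 of the family level in MI-NS and 54.4% ± 2.83 in MI-DAPA, while P4ha2 made up 41.6% ± 1.13 and then 45.4% ± 3.03 (SD, n = 3). Without the length term P4ha2 rather than P4ha1 was the larger of them, at 52.2% in MI-NS and 55.7% in MI-DAPA. The share of P4ha3 was 2.44% ± 0.722 in the MI-NS libraries against 0.238% ± 0.212 in those of MI-DAPA, and here the groups did not overlap. The partner P4hb did not pass the test, at 186 ± 4.68 CPM in MI-NS and 190 ± 5.87 CPM in MI-DAPA (log2 0.02 ± 0.07, edgeR adjusted p = 0.835). The ratio of P4ha1 to P4hb per kilobase was 0.174, 0.199 and 0.174 in the MI-NS libraries, and 0.130, 0.162 and 0.127 in the MI-DAPA libraries, so no library of either group fell within the range of the other. That of P4ha2 to P4hb was 0.136 ± 0.0158 in MI-NS and 0.116 ± 0.00553 in MI-DAPA, again without overlap. Ratios within libraries were compared by exact two-sided permutation tests, and 24 ratios were computed. The smallest p that 3 against 3 allows is 0.1, reached by each ratio without overlap and 0.16 after Benjamini-Hochberg adjustment over the 24, so none could pass 0.05.

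**Figure D2:**
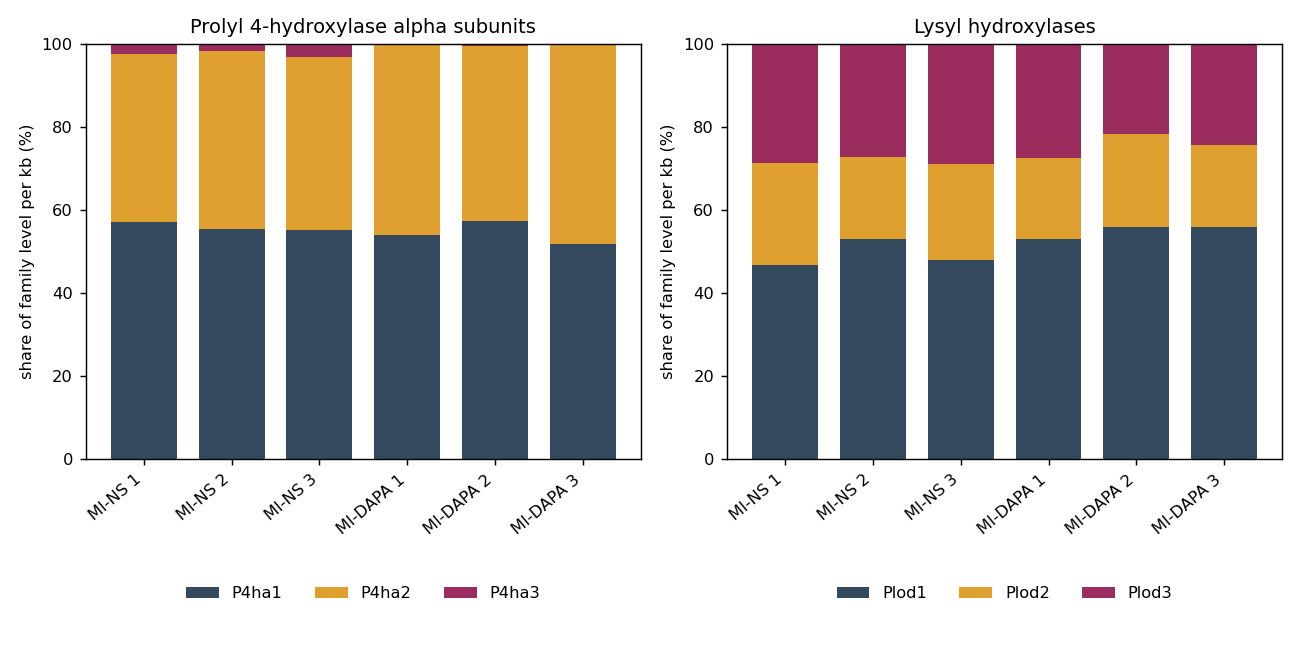
Share of each isoenzyme in the summed level per exonic kilobase of its family (y axis, percent), in each of the 6 libraries (x axis), for the prolyl 4-hydroxylase alpha subunits (left) and the lysyl hydroxylases (right). P4ha3 is visible at the top of the MI-NS bars, at 1.76% to 3.19%, and Plod1 holds 53.0% to 56.0% in MI-DAPA against 46.8% to 52.9% in MI-NS.

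The lysyl hydroxylases divide the work by position in the chain. Plod1 hydroxylates lysines in the triple helix, Plod2 those in the telopeptides that set the type of crosslink, and Plod3 also transfers sugars to hydroxylysine. Plod3 (ENSMUSG00000004846, chromosome 5, 136987019 to 136996648) had 43.4, 41.5 and 42.7 CPM in MI-NS and 34.0, 27.6 and 33.3 CPM in MI-DAPA. Every MI-DAPA library was lower than every MI-NS library, and the gene fell 1.34-fold (log2 -0.43 ± 0.10, edgeR adjusted p = 0.0214). The call was lost without MI-NS replicate 1 (log2 -0.40, adjusted p = 0.0525), MI-NS replicate 3 (-0.42, adjusted p = 0.063) or MI-DAPA replicate 3 (-0.44, adjusted p = 0.0572). It was also lost without replicate 3 of both groups (-0.44, adjusted p = 0.141). In these fits the size of the change stayed close to -0.43. Without MI-DAPA replicate 2, the library with the lowest level, the change was -0.33 and passed narrowly (adjusted p = 0.0498). Plod3 shares 529 of its 4519 exonic bases with Znhit1 on the opposite strand, and the sources used here do not say whether counting used strand. Znhit1 itself had a log2 change of -0.04 ± 0.11.

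Plod2 (ENSMUSG00000032374, chromosome 9, 92542223 to 92608428) had 44.6, 36.1 and 40.6 CPM in MI-NS and 29.1, 33.9 and 32.0 CPM in MI-DAPA. The groups did not overlap, but MI-NS replicate 2 lay close to the highest MI-DAPA library. Plod2 fell 1.28-fold (log2 -0.35 ± 0.10) and passed narrowly, with an edgeR adjusted p of 0.0499. Over 15 alternatives its adjusted p ranged from 0.0364 to 0.233 and the call was lost in 11, including each fit without MI-NS replicate 1 or 3 or any of the 3 MI-DAPA libraries. Without them in turn its log2 change was -0.27, -0.35, -0.29, -0.39 and -0.34. Plod1 (ENSMUSG00000019055, chromosome 4, 147909753 to 147936767), the most abundant of the family per kilobase, spanned 106 to 121 CPM in MI-NS and 98.6 to 114 CPM in MI-DAPA and the groups overlapped (log2 -0.06 ± 0.09, edgeR adjusted p = 0.669). Its share of the family level per kilobase was 49.2% ± 3.27 in MI-NS against 54.9% ± 1.67 under dapagliflozin (SD, n = 3). The groups did not overlap in this share, although the nearest libraries, at 52.9% and 53.0%, almost met. The promoter of Plod3 is shown as that of the called lysyl hydroxylase with a RefSeq entry, at chr5:136986769-136987018 on the plus strand, with capitals as above.
Plod3 promoter: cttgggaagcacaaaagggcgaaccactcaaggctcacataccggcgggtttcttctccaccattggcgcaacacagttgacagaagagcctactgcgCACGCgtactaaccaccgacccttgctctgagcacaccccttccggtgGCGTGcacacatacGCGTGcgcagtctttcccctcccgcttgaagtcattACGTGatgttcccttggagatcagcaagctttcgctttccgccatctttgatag
It holds 1 ACGTG and 3 GCGTG and 0 GGGCGG.

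Pcolce had the smallest adjusted p of the members. It encodes a secreted glycoprotein that binds the procollagen C-propeptide and speeds its removal by the protease Bmp1. Pcolce (ENSMUSG00000029718, chromosome 5, 137605103 to 137613784) had 80.6, 82.5 and 87.3 CPM in MI-NS and 42.0, 53.8 and 52.1 CPM in MI-DAPA. The gap between the groups was wider than the range within either of them. It fell 1.69-fold, from 83.4 ± 3.45 to 49.3 ± 6.40 CPM (SD, n = 3), a log2 change of -0.76 ± 0.10 with an edgeR adjusted p of 0.00497. With any 1 library left out it stayed called, and without replicate 3 of both groups the log2 change was -0.75 with an adjusted p of 0.0825. Its partners moved in the same direction: Bmp1 fell 1.58-fold (log2 -0.66 ± 0.08, edgeR adjusted p = 0.00341), and the paralog Pcolce2 fell 1.46-fold (log2 -0.55 ± 0.10). The ratio of Pcolce to Bmp1 per kilobase was 2.88 ± 0.256 in MI-NS and 2.69 ± 0.397 in MI-DAPA, and the groups overlapped. Pcolce shares 112 exonic bases with Fbxo24 and with the antisense gene Gm36266, which had 39 and 84 counts in all 6 libraries together. Its promoter, chr5:137611405-137611654 on the minus strand, is shown as that of the member with the smallest p. This window lies inside the locus given above, since the RefSeq start differs from the locus end at 137613784.
Pcolce promoter: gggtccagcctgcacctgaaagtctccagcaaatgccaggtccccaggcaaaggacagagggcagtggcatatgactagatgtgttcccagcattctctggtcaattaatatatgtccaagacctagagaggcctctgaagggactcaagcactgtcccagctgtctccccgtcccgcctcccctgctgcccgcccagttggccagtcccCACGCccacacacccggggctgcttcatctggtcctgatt
It holds 0 ACGTG, 1 GCGTG (as CACGC) and 1 GGGCGG.

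None of the 3 chaperones passed the edgeR test, and of them Crtap alone had an unadjusted p under 0.05. Serpinh1 (ENSMUSG00000070436, chromosome 7, 99345375 to 99353230) encodes HSP47, the chaperone that binds folded procollagen in the endoplasmic reticulum, and was the most abundant member, at 87.8 CPM per exonic kilobase in MI-NS. It had 258, 122 and 263 CPM in MI-NS and 164, 220 and 189 CPM in MI-DAPA. MI-NS replicate 2 held less than any MI-DAPA library while the other MI-NS libraries held more than any of them, so the groups overlapped. The log2 change was -0.17 ± 0.26 (edgeR adjusted p = 0.698). Without MI-NS replicate 2 it was -0.43 (adjusted p = 0.0522), and without MI-NS replicate 3 it was 0.0088 (adjusted p = 0.987). Hspa5, the general chaperone of the same compartment, did not share this dip: MI-NS replicate 2 had its highest MI-NS level, 354 CPM, beside 279 and 305 CPM. MI-NS replicate 2 was the lowest MI-NS library for 5 members, Serpinh1 among them, and the highest for 3. The others of the 5 dipped less there. Plod3, for example, had 41.5 CPM in that library beside 43.4 and 42.7 CPM, and Plod2 had 36.1 CPM beside 44.6 and 40.6 CPM. Col1a1 (273 CPM) and Col3a1 (487 CPM) also had their lowest MI-NS level there, whereas Col5a3 had its highest (46.3 CPM).

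Fkbp10 (ENSMUSG00000001555, chromosome 11, 100415697 to 100424824) encodes FKBP65, a prolyl isomerase that in humans is needed for telopeptide lysine hydroxylation by PLOD2. It lay between 26.1 and 30.4 CPM in MI-NS and between 25.2 and 28.3 CPM in MI-DAPA, with overlap (log2 -0.10 ± 0.09, edgeR adjusted p = 0.513). It shares 193 exonic bases with Nt5c3b on the opposite strand, which had a log2 change of 0.01 ± 0.16. Crtap (ENSMUSG00000032431, chromosome 9, 114375134 to 114390675) encodes the scaffold of the complex that, with P3h1 and Ppib, modifies a single proline of fibrillar collagen chains. It had 32.5, 29.1 and 21.4 CPM in MI-NS and 20.7, 22.2 and 21.4 CPM in MI-DAPA, so that MI-NS replicate 3 fell among the MI-DAPA libraries. The log2 change was -0.37 ± 0.14 (edgeR adjusted p = 0.112), and without MI-NS replicate 3 it was -0.52 and passed (adjusted p = 0.0262).

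The other genes of collagen biosynthesis, a list of 28, were all tested, and the median log2 change was -0.29. Of these 11 were called lower and 1 higher, where 7.83% and 8.69% of all tested genes were. Within the prolyl 3-hydroxylase complex Ppib, a prolyl isomerase also known as cyclophilin B, fell 1.36-fold (log2 -0.44 ± 0.09) while P3h1, at 0.06 ± 0.18 on that scale, did not pass. The paralogs P3h2 and P3h3 fell, by 0.76 ± 0.13 and 0.69 ± 0.16 on the log2 scale, and P3h4 did not pass (0.29 ± 0.10, edgeR adjusted p = 0.0768). P3h3 lost its call in 5 of 15 alternatives, without MI-NS replicate 1 (-0.61) or 3 (-0.59), likewise without MI-DAPA replicate 1 (-0.73) or 3 (-0.59), or replicate 3 of both groups (-0.49, adjusted p = 0.179). Ppib lost it in 3, without MI-DAPA replicate 1 (-0.41) or 3 (-0.39) or replicate 3 of both groups (-0.43). The ratio of Crtap to P3h1 per kilobase was 3.97 ± 0.232 in MI-NS and 2.95 ± 0.321 in MI-DAPA, without overlap. The collagen galactosyltransferases Colgalt1 (0.03 ± 0.09) and Colgalt2 (-0.26 ± 0.15) and the isomerases Fkbp7 (-0.12 ± 0.19) and Fkbp14 (-0.32 ± 0.16) did not pass.

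Of the 5 secretion genes 0 were called in the edgeR fit, where 16.5% of all tested genes were. Of these 5 genes 2, Ctage5 and Sec23a, had an unadjusted p under 0.05. Mia3, which loads procollagen into transport carriers, had a log2 change of 0.04 ± 0.10 and Sec13 of -0.01 ± 0.09. Ctage5 (0.19 ± 0.07), Sec23a (0.39 ± 0.12, edgeR adjusted p = 0.0521) and Sec24d (-0.14 ± 0.07) did not pass either. Sec23a was called higher in 6 of 15 alternatives, among them DESeq2 (adjusted p = 0.026), limma-voom (0.0477) and the fit without MI-NS replicate 1 (0.51, adjusted p = 0.0242). Creb3l1, a membrane-bound transcription factor of collagen secretion, was at -0.72 ± 0.22 on the log2 scale (edgeR adjusted p = 0.053). It was called lower in 7 of 15 alternatives, among them DESeq2 (adjusted p = 0.0275) and the fits without MI-NS replicate 1 (-0.86, adjusted p = 0.0387) and, likewise, without MI-DAPA replicate 2 (-0.90, adjusted p = 0.0416). Of the N-propeptide proteases Adamts2 fell 1.99-fold (log2 -1.0 ± 0.14) and Adamts3 rose 1.69-fold, from 2.73 ± 0.0524 to 4.63 ± 0.311 CPM (log2 0.76 ± 0.16, edgeR adjusted p = 0.0167). Adamts14 was at -0.07 ± 0.27, and Tll1, a paralog of Bmp1 with 4 to 19 counts per library, at -0.97 ± 0.50, and neither passed. Adamts3 lost its call without MI-DAPA replicate 1 (log2 0.75, adjusted p = 0.0617), likewise without MI-DAPA replicate 3 (0.74, adjusted p = 0.0559) or replicate 3 of both groups (0.75, adjusted p = 0.13), while the change stayed close to 0.76. At the extracellular end, the collagen-binding glycoprotein Sparc fell 1.81-fold (-0.86 ± 0.10), and of 5 lysyl oxidases 4 fell, from Lox at -2.32 ± 0.24 and Loxl3 at -1.64 ± 0.14 to Loxl1 at -1.19 ± 0.09 and Loxl2 at -0.75 ± 0.16. Loxl4 did not pass (-0.20 ± 0.27). Loxl2 lost its call without MI-NS replicate 3 (-0.66), likewise without MI-DAPA replicate 3 (-0.75) or replicate 3 of both groups (-0.66). In that last fit 2 companion genes were called lower, Loxl1 and Loxl3.

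**Figure D3:**
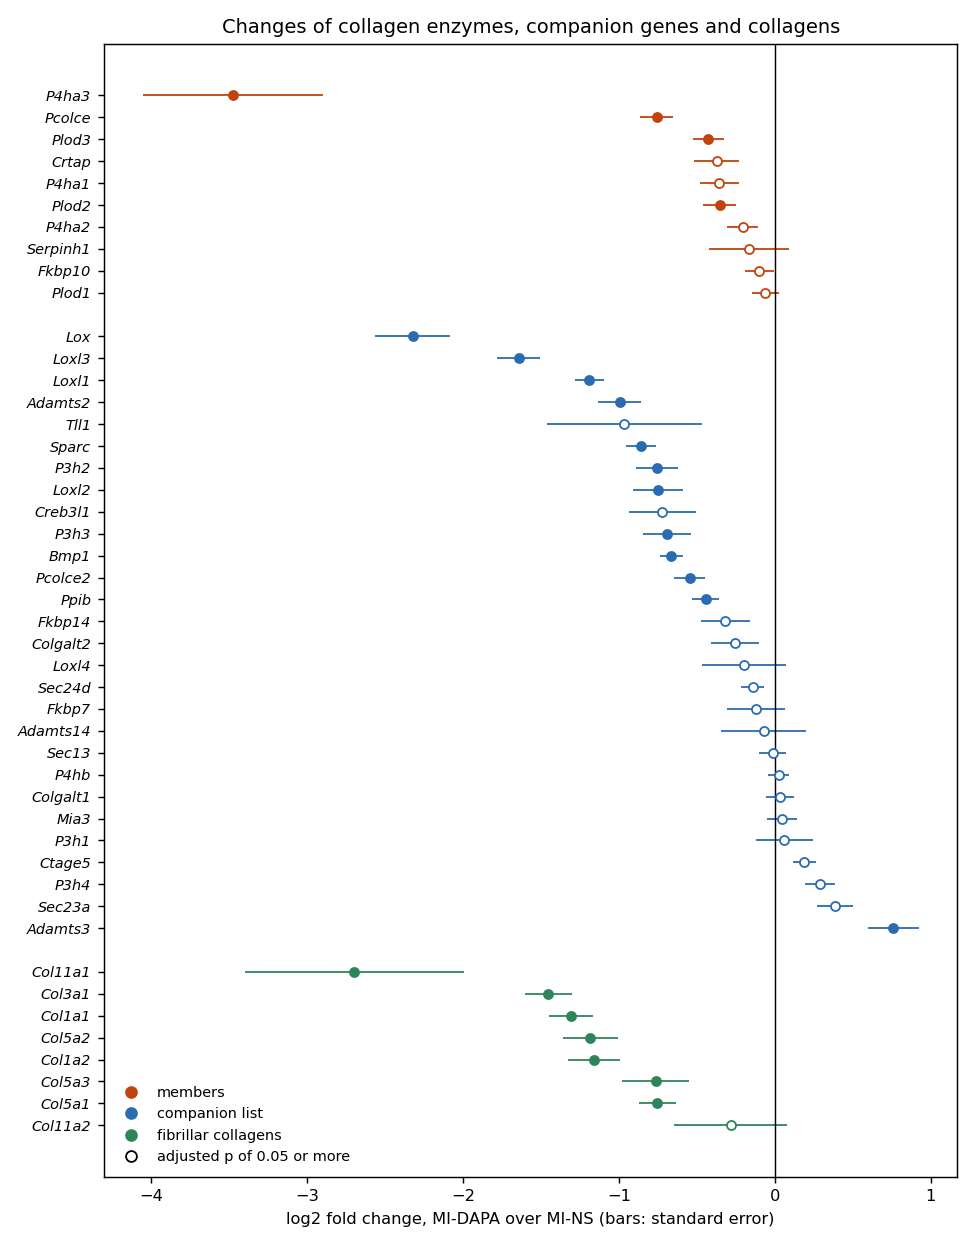
Log2 fold change of MI-DAPA over MI-NS (x axis) with its standard error for the 10 members, the 28 companion genes and the 8 tested fibrillar collagens; filled points have an adjusted p under 0.05. Members other than P4ha3 lie between -0.76 and -0.06, and Col1a1 and Col3a1 at -1.31 and -1.45.

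Many of the collagen genes themselves, whose products these enzymes act on, also fell, where 7.83% of all tested genes did. Of 9 fibrillar collagen genes 8 were tested and 7 fell, with a median log2 change of -1.17, among them Col3a1 (-1.45 ± 0.15), Col1a1 (-1.31 ± 0.14) and Col5a3 (-0.76 ± 0.21). Col5a3 lost its call in 5 of 15 alternatives, without MI-NS replicate 2 (-0.53) or 3 (-0.83), likewise without MI-DAPA replicate 1 (-0.58) or 3 (-0.77), or replicate 3 of both groups (-0.85). Col11a2, a minor chain, did not pass at -0.28 ± 0.36. Of 6 basement membrane collagens 2 fell, Col4a1 (-0.59 ± 0.09) and Col4a2 (-0.48 ± 0.08), while Col4a4 (-0.15 ± 0.16) and Col4a6 (0.05 ± 0.27) were among those that did not pass. Col1a1 was 390, 273 and 313 CPM in MI-NS and 115, 145 and 133 CPM in MI-DAPA. Relative to Col1a1 in the same library and per kilobase, 9 members were higher in all MI-DAPA libraries than in all MI-NS libraries. Only 1.13% of tested genes had a lower log2 change than Col1a1. A gene with no change between groups would therefore also be higher by this ratio. Serpinh1 per Col1a1 was 1.78, 1.21 and 2.26 in MI-NS libraries, and 3.82, 4.07 and 3.81 in MI-DAPA libraries, and Plod1 per Col1a1 was 0.341 ± 0.0837 and 0.790 ± 0.0709. For Pcolce the same ratio was 0.451 ± 0.0859 and 0.644 ± 0.0237. P4ha3 was the exception, at 0.0105 ± 0.00277 in MI-NS and 0.00208 ± 0.00185 in MI-DAPA. All 10 ratios share Col1a1 as denominator, so they are not independent, and each had the exact p of 0.1 named above.

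**Figure D4:**
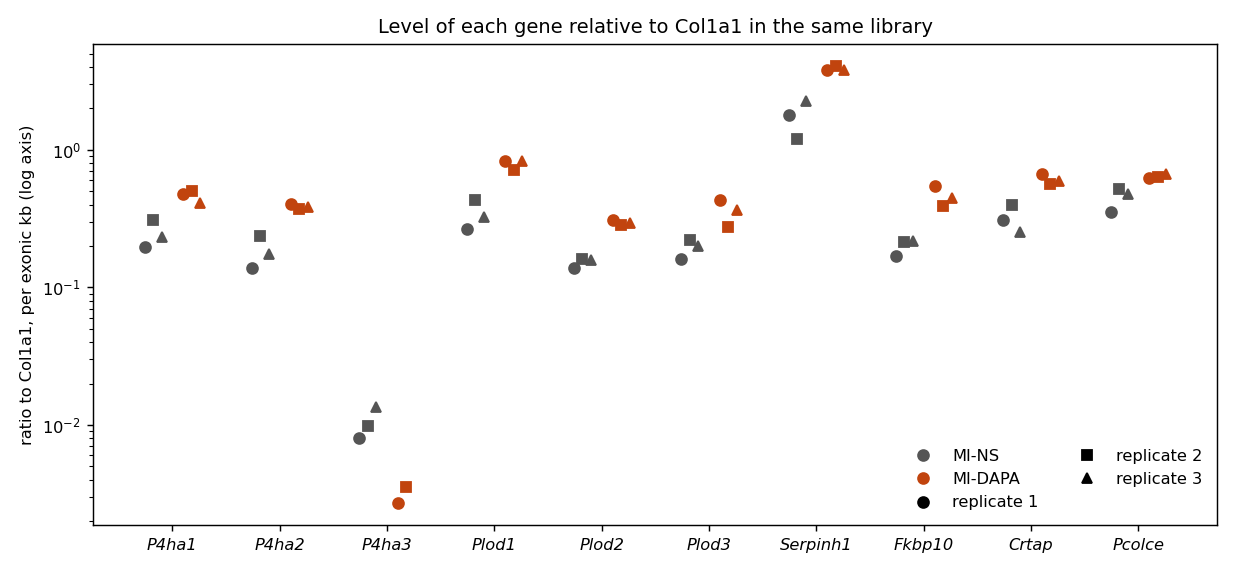
Level of each member divided by that of Col1a1 in the same library, both per exonic kilobase (y axis, log scale), for MI-NS (grey) and MI-DAPA (orange) by replicate; P4ha3 in MI-DAPA replicate 3 is 0 and cannot be drawn. MI-DAPA lies above MI-NS for 9 genes, as for Serpinh1 with 3.81 to 4.07 against 1.21 to 2.26, and below it for P4ha3. The fall of Col1a1 raises the ratio of any gene.

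Markers of several cell types moved along with these changes, where 7.83% of all tested genes were called lower and 8.69% higher. Of 8 fibroblast markers 5 fell and 0 rose, with a summed level of 2593 to 3000 CPM in MI-NS and 1798 to 2058 CPM in MI-DAPA. Col1a2, called lower (log2 -1.16 ± 0.16), is in this list and also among the fibrillar collagens above. Of 8 activated fibroblast markers 7 fell and 0 rose, with 769 to 1013 CPM in MI-NS and 285 to 382 CPM in MI-DAPA. Endothelial markers fell in 5 of 8 (1167 to 1283 against 970 to 1032 CPM), macrophage markers in 2 of 8 (218 to 253 against 174 to 195 CPM), and 5 of 8 cardiomyocyte markers rose. Smooth muscle and pericyte markers had 2 falls and 1 rise of 8, with 1221 to 1305 CPM in MI-NS and 1203 to 1236 CPM in MI-DAPA. Cartilage and bone markers summed to 4.90 to 20.9 CPM in MI-NS and 4.52 to 8.96 CPM in MI-DAPA, epicardial and mesothelial markers to 11.5 to 22.7 and 9.26 to 9.94 CPM, and red cell markers to 197 to 261 and 215 to 330 CPM, and edgeR made 0 calls in these 3 lists, where at an unadjusted p under 0.05 there were 3, 1 and 2 genes. None of the markers measured in these lists was at 0 in all 6 libraries. In these bulk samples fewer cells of a type and less RNA per cell cannot be told apart, and the part of the markers' shift in the members' changes was not tested.

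General chaperones of the endoplasmic reticulum and hypoxia response genes had a few calls in both directions. Of all tested genes 7.83% were called lower and 8.69% higher. Of 19 chaperone and stress genes 1 fell, Pdia3 (-0.38 ± 0.08), and 2 rose, among them Dnajb9 (0.37 ± 0.10), with a median log2 change of -0.12; Hyou1 (0.03 ± 0.16) and Ero1l (0.0041 ± 0.11) had the largest p. Dnajb9 lost its call in 7 of 15 alternatives: with library totals only (0.26, adjusted p = 0.174), with any library but MI-NS replicate 3 left out (0.28 to 0.40), and without replicate 3 of both groups (0.45). Pdia3 lost it in 3, without MI-NS replicate 3 (-0.37), likewise without MI-DAPA replicate 1 (-0.30) or replicate 3 of both groups (-0.38). Of 19 tested hypoxia response genes 1 fell, Ndrg1 (-0.46 ± 0.09), and 3 rose, with a median of -0.045. Ndrg1 lost its call without MI-DAPA replicate 3 (-0.40) or replicate 3 of both groups (-0.40). The hexokinase gene Hk2 had the smallest p of them (0.58 ± 0.07). Slc2a1 (-0.04 ± 0.11) and Hif1a (-0.02 ± 0.08) did not pass.

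After each gene was centred within its group, correlations of log2 CPM between the 45 pairs of members ran from -0.97 to 0.86 with a median of -0.11, over 6 libraries that share their depth and scaling. Among 8694 other genes averaging 3 or more in log2 CPM, those closest to the members' mean by this measure were Peli1 (r = 0.999), Dicer1 (0.999), Ctnnal1 (0.99), Osbpl5 (0.984) and Mex3c (0.983). These are the highest of many values over 6 libraries, and the edgeR adjusted p of these 5 genes between groups was 0.166 to 0.850.

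**Figure D5:**
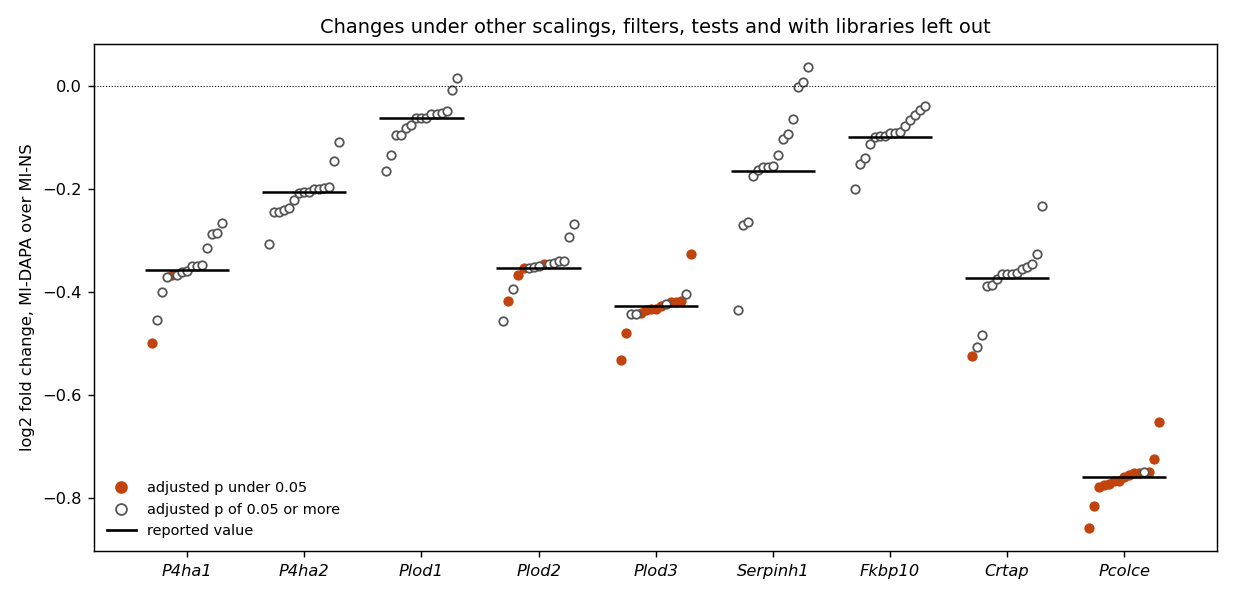
Log2 fold change of 9 members (P4ha3 is off the scale) under each of 15 alternatives (points), with the reported value as a bar; filled points have an adjusted p under 0.05. Pcolce was filled in all but the fit without replicate 3 of both groups, whereas Plod2 was filled in 4 of 15, and Plod1 and Serpinh1 crossed 0.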

How the data were processed

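Per the labels' protocols, mRNA was separated from total RNA of left ventricle, fragmented, made into libraries and run on an Illumina NovaSeq instrument. The authors deposited raw read counts per gene, 1 table per library. The submitters' processing notes name the build mm10 and the tools StringTie 1.3.0 and edgeR, with no role. The sources used here name no aligner, counter or strand setting.

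Groups came from the sample titles, which number biological replicates but name no animal, so the p-values reflect only how these samples vary, which may be technical. The members and gene lists were chosen with earlier results of these data known. Counts were fitted with edgeR 4.0.16 (R 4.3.3): filterByExpr (minimum count 10, minimum total 15), TMM, then glmQLFit and glmQLFTest. P-values were adjusted over 13940 genes (Benjamini-Hochberg). The SE is the absolute log2 fold change over the square root of F, and a prior count of 2 went into log2 CPM. Lengths are merged exons of GENCODE M21, coordinates those of the files on mm10, and promoters those of RefSeq on GRCm38.p6. Chi-square per degree of freedom between libraries ran from 10.4 to 27.3 for libraries of 1 group and from 28.2 to 49.0 across groups, so none was a duplicate. DESeq2 1.42.0 and limma 3.58.1 (voom) were alternatives. The fitting steps were tested on simulated data. Named were all members, all companion genes and, of each other list, the 2 genes with the smallest and the 2 with the largest p. For the marker lists and the iron list the counts and ranges stand in for these names, and a few further genes were named after their values were seen.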

Additional observations from a re-analysis of the deposited data

How the results depend on the processing

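The 5 counts of calls and the log2 changes of 58 genes were recomputed under 15 alternatives. Of 867 gene values 747 kept their direction and side of the threshold, 69 lost and 16 gained a call, and 35 changed sign. With 1 library left out, all called genes numbered 998 to 1863 (2304 in full), members called lower 2 to 4, companion genes called lower 8 to 12 and companion genes called higher 0 to 2. Without replicate 3 of both groups these were 24, 0, 2 and 0, in a fit with fewer samples. Companion genes called higher were 2, not 1, under RLE normalization, DESeq2 and limma-voom. The same held with no low-count filter and with a filter of at least 50 counts in 3 libraries. The gene added to Adamts3 each time was Sec23a, with an edgeR adjusted p of 0.0521 in the full fit. P4ha3 was not tested under the stricter filter. Without the length term 10 of 12 isoenzyme shares moved by more than 1 SD.

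Same-numbered libraries did not all deviate together (correlations 0.044, -0.0051 and 0.11), and not every library was closest to its own number. The value of 0.11, for replicate 3, was the highest between the groups. Its chi-square of 28.2 was the lowest across groups, next to 28.6 for MI-NS replicate 1 with MI-DAPA replicate 2. In log2 CPM, MI-NS replicate 3 correlated more with MI-DAPA replicate 2 (0.974) than with MI-DAPA replicate 3 (0.972). A shared effect on replicate 3 was not tested. With the replicate block 4 members were called lower and 2307 genes in all. P4ha1 gained a call (-0.37, adjusted p = 0.0341) and Plod2 lost it (-0.35, adjusted p = 0.0849).

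The sign changes were in genes not called in the full fit. With library totals only the values were P4hb -0.077, P3h1 -0.047, Colgalt1 -0.071, Mia3 -0.063, Col4a6 -0.059, Hyou1 -0.061, Ero1l -0.094, and with upper quartile scaling Ero1l -0.0091. Without replicate 3 of both groups they were Serpinh1 0.037, P3h1 -0.052, Fkbp7 0.14. With 1 library left out the ranges were -0.38 to 0.049 for Loxl4, -0.096 to 0.044 for Slc2a1, -0.057 to 0.053 for Hif1a, -0.095 to 0.016 for Plod1, -0.27 to 0.23 for Adamts14, -0.050 to 0.037 for Sec13, -0.097 to 0.38 for Col4a6, -0.044 to 0.058 for Ero1l, -0.43 to 0.0088 for Serpinh1, -0.12 to 0.19 for P3h1, -0.24 to 0.088 for Fkbp7, -0.011 to 0.15 for Mia3, -0.85 to 0.0058 for Col11a2, -0.17 to 0.15 for Hyou1, -0.020 to 0.096 for Colgalt1. With 0 to 5 counts per library, P4ha3 in MI-DAPA lay near the floor of 3 counts.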

Other observations

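Enzymes that use the same cofactors as the collagen hydroxylases but act on other substrates were counted beside them. Of 11 other 2-oxoglutarate dioxygenases 10 were tested, where 8.69% of all tested genes rose and 7.83% fell: 2 rose and 0 fell by edgeR (4 and 1 at an unadjusted p under 0.05), with a median log2 change of 0.15. Hif1an, which hydroxylates an asparagine of hypoxia-inducible factor, rose by 0.46 ± 0.10 on the log2 scale (edgeR adjusted p = 0.0201), and Asph, an aspartyl hydroxylase of the endoplasmic reticulum, 0.28 ± 0.06 (edgeR adjusted p = 0.0217). Each lost its call in 5 of 15 alternatives. For Hif1an these were library totals only (0.35, adjusted p = 0.118) and the fits without MI-NS replicate 2 (0.41) or 3 (0.42), likewise without MI-DAPA replicate 1 (0.39) or replicate 3 of both groups (0.47). For Asph they were library totals only (0.17, adjusted p = 0.268) and the fits without MI-NS replicate 3 (0.26), likewise without MI-DAPA replicate 1 (0.27) or 3 (0.30) or replicate 3 of both groups (0.28). Ogfod2 (0.13 ± 0.15) and Ogfod3 (0.12 ± 0.13) did not pass. Of 6 tested genes of ascorbate and iron supply 1 rose and 0 fell (1 and 0 at an unadjusted p under 0.05), with a median of -0.061. The difference between these lists and the collagen hydroxylases was not tested.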
